A study of Mus musculus with 6 samples.

Results

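Mitochondrial ribosomal protein genes were examined in mouse 4-cell embryos whose transcription had been blocked for part of early cleavage. Members were chosen by gene symbol alone, as every symbol that begins with Mrpl or Mrps and a digit and is not marked as a pseudogene. The rule gave 78 of the 55335 genes listed for each library, 49 named for the large subunit (Mrpl) and 29 for the small subunit (Mrps). No measured value entered the rule, but the family was picked with results of these libraries known, so its counts and medians describe it and carry no test. RNA was measured by Smart-Seq2, which primes polyadenylated RNA of a few cells with oligo-dT and amplifies the full-length cDNA. The DRB group holds 3 libraries of 4-cell embryos that received 20 µM DRB, a nucleoside analogue that inhibits the elongation kinase of RNA polymerase II. Exposure began in the zygote 6 h after fertilization, lasted 20 h, and was followed by washing and a further 26 h of culture without the inhibitor. The Con group holds 3 libraries of 4-cell embryos labelled as controls, with no word on a vehicle. Times were found for DRB embryos only, so whether the groups match in age as well as stage is not known. No source used here gives the number of embryos in a library, the mouse strain or the origin of the replicates.

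Mitochondria carry their own ribosome, which translates the few mRNAs of the mitochondrial genome, all of them for subunits of the respiratory chain or ATP synthase. Its ribosomal RNAs are copied from mitochondrial DNA, but all of its proteins are encoded in the nucleus, translated in the cytosol and imported. Part of these proteins descend from the ribosome of the bacterial ancestor, and the rest were added in the mitochondrial lineage and replace or cover lost ribosomal RNA. Embryos inherit mitochondria from the egg together with a maternal store of mRNA, which is degraded as transcription of the embryo's own genome begins around the 2-cell stage.

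The 4 members that were lower in DRB embryos at the adjusted threshold, and Mrps23, the 1 member whose DRB libraries all lay above its Con libraries, are shown first by their promoters. Mrps23 was picked for contrast after its values were seen. Each line gives the 250 bases before the RefSeq start of the gene (GRCm38.p6, the same assembly as mm10), 5′ to 3′ on the gene's strand. Capitals mark the NRF1 core TGCGCA, which reads the same on both strands, and the ETS motif CCGGAAG or its reverse complement.
Mrps27, chr13:99344536-99344785, plus strand: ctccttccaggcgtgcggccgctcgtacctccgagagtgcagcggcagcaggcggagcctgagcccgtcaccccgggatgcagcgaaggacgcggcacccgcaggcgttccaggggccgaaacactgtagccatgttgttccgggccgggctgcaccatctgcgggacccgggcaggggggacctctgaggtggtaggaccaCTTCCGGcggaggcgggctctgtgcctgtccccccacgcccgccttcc
Mrps31, chr8:22411090-22411339, plus strand: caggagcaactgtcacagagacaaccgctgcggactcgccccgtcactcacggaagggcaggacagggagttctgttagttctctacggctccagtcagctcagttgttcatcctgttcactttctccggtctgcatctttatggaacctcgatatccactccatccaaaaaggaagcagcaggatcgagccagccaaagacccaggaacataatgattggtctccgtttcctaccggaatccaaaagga
Mrpl17, chr7:105811088-105811337, minus strand: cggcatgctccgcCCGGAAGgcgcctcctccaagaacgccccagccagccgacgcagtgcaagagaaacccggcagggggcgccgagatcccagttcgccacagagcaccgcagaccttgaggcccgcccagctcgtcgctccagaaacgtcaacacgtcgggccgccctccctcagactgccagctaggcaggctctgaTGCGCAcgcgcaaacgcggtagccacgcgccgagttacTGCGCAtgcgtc
Mrpl41, chr2:24975099-24975348, minus strand: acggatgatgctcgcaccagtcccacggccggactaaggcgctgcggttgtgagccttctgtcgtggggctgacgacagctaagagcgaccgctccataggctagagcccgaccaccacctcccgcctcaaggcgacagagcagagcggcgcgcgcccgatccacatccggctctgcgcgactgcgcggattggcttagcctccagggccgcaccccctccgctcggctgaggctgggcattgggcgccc
Mrps23, chr11:88204138-88204387, plus strand: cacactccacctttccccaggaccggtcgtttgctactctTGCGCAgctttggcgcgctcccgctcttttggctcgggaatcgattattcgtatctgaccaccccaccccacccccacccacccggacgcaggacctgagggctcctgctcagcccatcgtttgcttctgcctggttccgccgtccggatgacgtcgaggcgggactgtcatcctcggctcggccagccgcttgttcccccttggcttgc
The NRF1 core belongs to a transcription factor of nuclear genes for mitochondrial proteins, and the ETS motif to a family that includes Gabpa, another such factor. Mrpl17 held 2 NRF1 cores and 1 ETS motif, Mrps27 held 1 ETS motif, Mrps23 held 1 NRF1 core, and Mrps31 and Mrpl41 held neither in this window. RefSeq promoters were matched for 69 of the 78 members, with 75 windows in all. Of these windows, 25.3% held the NRF1 core, against 12.2% of the 9926 windows of tested genes and 6.43% of all 32851 windows. The ETS motif stood in 24.0% of the members' windows, against 15.4% of those of tested genes and 6.91% of all windows. The motif ATGGCGG, read by YY1 and searched on both strands like the others, stood in 1.33% of the members' windows, against 4.12% of those of tested genes and 2.21% of all windows. These shares are matches of letters and say nothing about binding in these embryos. The windows end before the start of the gene, so motifs at or beyond it were not counted.

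Depth, estimated from the steps of 1 fragment among low values, was 22400000 to 25300000 fragments in DRB libraries and 22100000 to 23500000 in Con libraries. A depth 2 times as large fitted the steps as well, and the lower one was taken. All 10 markers of the early embryo that were looked up were detected at 1 FPKM or more in at least 3 libraries, with summed levels of 179.9 to 277.6 FPKM (fragments per kilobase of transcript, scaled to the library's total) in DRB and 203.9 to 264.8 FPKM in Con. Of 8 markers of cumulus cells 2 were detected, Gja1 (means of 190 FPKM in DRB and 286 FPKM in Con) and Amhr2 (23.6 and 19.7 FPKM). Has2, Cyp11a1 and Fshr were at 0 in every library. Sums of the cumulus markers, mostly Gja1, were 144.8 to 275.8 FPKM in DRB and 213.1 to 387.2 FPKM in Con. Of the other lists, 1 of 6 sperm markers and 4 of 6 blood markers were detected, with sums of 7.04 to 17.4 and 47.0 to 87.3 FPKM in DRB and 8.97 to 19.1 and 74.3 to 114.0 FPKM in Con. Only the detected markers entered the limma fit, and of those 0 passed the adjusted threshold and 0 had an unadjusted p below 0.05. The part of these markers in the results was not tested. The mitochondrial genome took 23.9% to 26.4% of all FPKM in DRB libraries and 12.2% to 20.0% in Con libraries, which lowers every other value in proportion. DRB replicate 1 was the library least like the others, with Pearson's r of log2 values of 0.909 and 0.918 with the other DRB libraries and 0.869 to 0.885 with Con libraries. Con replicate 1 also stood out, with the lowest mitochondrial share (12.2%) and 22102 genes above 0. The other Con libraries had 18485 and 18499 such genes, and DRB libraries 18740 to 19895.

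The comparison asks where the transcripts of this ribosome stood 26 h after the block was lifted. Most members were lower in DRB embryos, 4 of them past the adjusted threshold. FPKM gives a transcript's share of its library, so amounts per embryo were not measured. In libraries of whole embryos, fewer cells with a transcript and less of it per cell cannot be told apart. Of the 78 members, 71 (91.0%) had a negative log2 fold change (DRB over Con) and 7 a positive one, against 56.0% negative over all tested genes, and the count of negative ones was 69 with either of 2 other scalings. The median change was −0.66 on the log2(FPKM + 1) scale, with quartiles at −0.94 and −0.32 and a range of −2.16 to 0.98, beside −0.09 over all 11893 genes tested. All 78 members passed the filter of at least 1 FPKM in at least 3 libraries, and 76 were at 1 FPKM or more in every library, so no member was lost to low values. At a Benjamini-Hochberg adjusted p below 0.05 (limma), 4 members (Mrps27, Mrps31, Mrpl17 and Mrpl41) fell and 0 rose, where 0.95% of all tested genes fell and 1.53% rose. Before adjustment, limma's p was below 0.05 for 30 members with a lower level and for 1 with a higher level (Mrps6), against 10.5% and 7.53% of tested genes. The count with a lower level was 24 without the mitochondrial genome and 20 with median-of-ratios scaling. The share of 10.5% belongs to the deposited values of all libraries, and the share of tested genes was not counted in other fits. In 30 members, or 38.5%, all 3 DRB libraries lay below all 3 Con libraries, against 13.9% of tested genes. The reverse held for Mrps23 alone among the members, against 9.85% of tested genes. A change of −1 or lower was seen in 16 members, or 20.5%, and in 8.68% of tested genes, and 0 members had a change of 1 or higher. Without DRB replicate 1 the members' median was −0.53, beside −0.16 over all tested genes, 0 members were called, 65 had a negative change and 26 had an unadjusted p below 0.05 with a lower level.

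**Figure D1:**
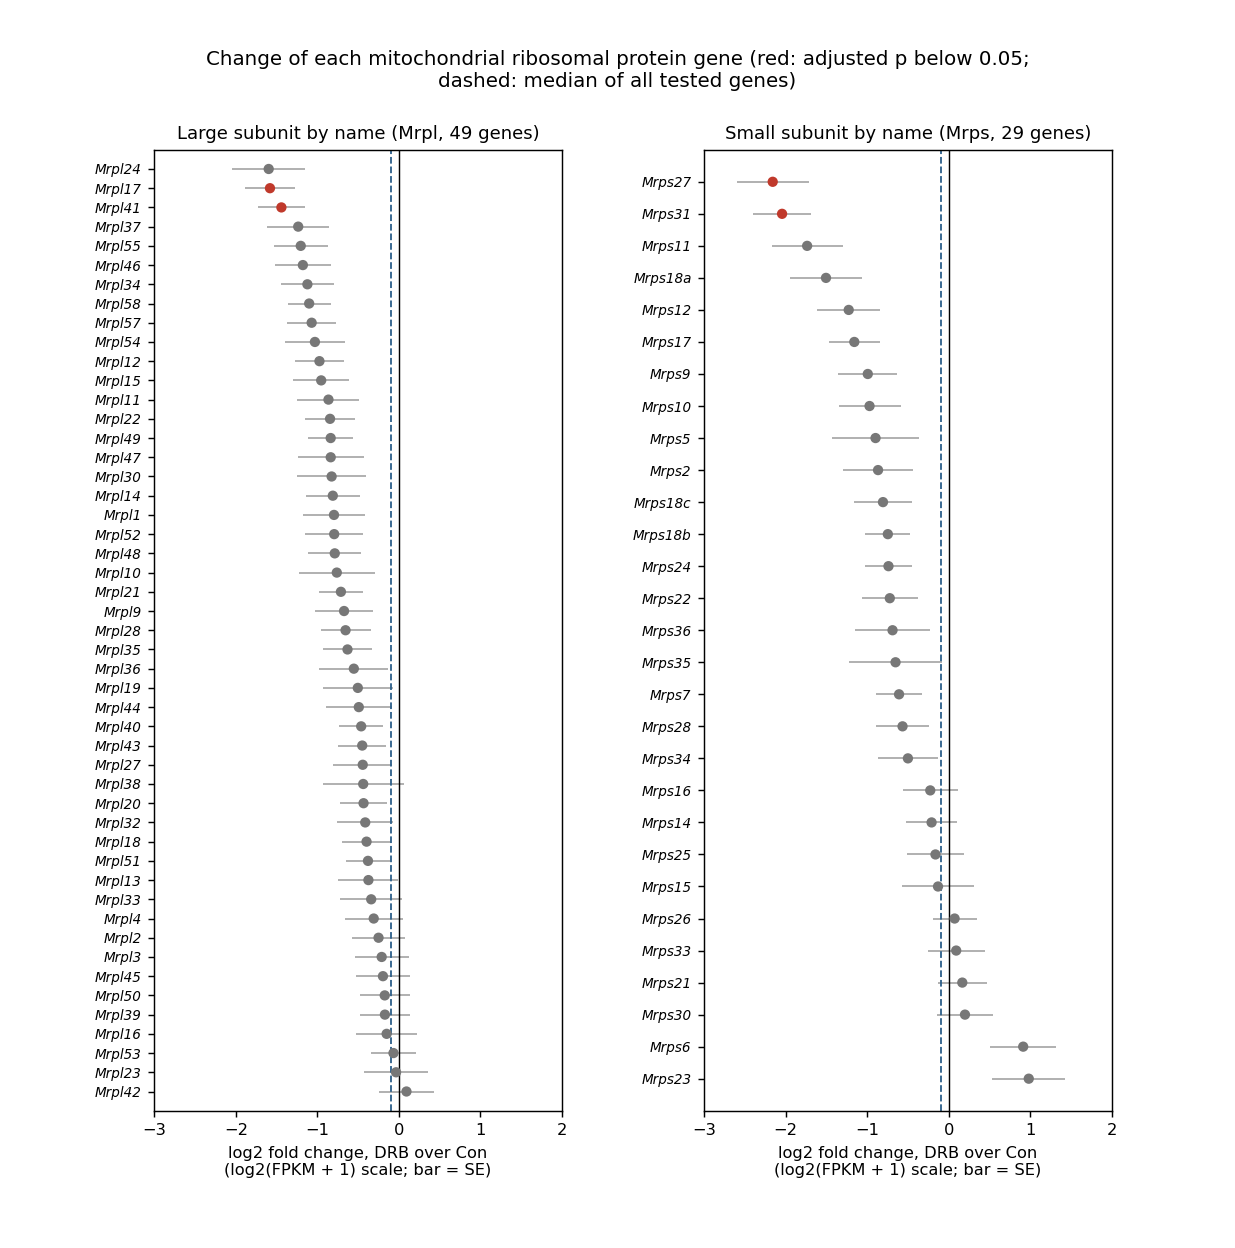
Log2 fold change of each of the 78 members (points, DRB over Con, log2(FPKM + 1) scale) with its moderated standard error (bars), for the 49 Mrpl genes and the 29 Mrps genes, and a dashed line at the median of all tested genes. Points run from −2.16 for Mrps27 to 0.98 for Mrps23, the 4 red points are the members with an adjusted p below 0.05, and 48 of 49 Mrpl points lie left of 0.

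Mrps27, a small-subunit protein with repeats of the kind that bind RNA, had the largest change of the family and the lowest mean level over all 6 libraries, though in Con libraries alone Mrps5, at 5.20 ± 3.02 FPKM, was lower. Its level was 0.05, 1.38 and 0.86 FPKM in DRB replicates 1 to 3, against 7.45, 5.5 and 6.54 FPKM in Con replicates 1 to 3. The highest DRB library stood below the lowest Con library by a wide margin, and DRB replicate 1 was close to 0. At the estimated depths these values stand for about 2, 52 and 37 fragments in DRB, against 287, 217 and 243 in Con. These numbers scale with the depth, which may be too low by a factor of 2. The means were 0.763 ± 0.670 FPKM in DRB and 6.50 ± 0.976 FPKM in Con (SD, n = 3 each), a ratio of 0.117. The log2 fold change was −2.16 ± 0.44 (SE) with a limma adjusted p of 0.0302, and at this low level the added 1 FPKM makes the change on that scale smaller than the ratio of means. The gene lies on chromosome 13 (99344786 to 99415562, plus strand, GRCm38).

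Mrps31 encodes a small-subunit protein with no bacterial counterpart. It stood at 7.90, 6.53 and 13.9 FPKM after DRB, against 44.0, 43.5 and 33.9 FPKM in Con. The groups were far apart, and DRB replicate 3, the nearest to Con, still lay well below its lowest library. The means were 9.43 ± 3.89 FPKM in DRB and 40.5 ± 5.73 FPKM in Con (SD, n = 3 each). Its log2 fold change was −2.04 ± 0.36 with a limma adjusted p of 0.0168, the lowest among the members. It lies on chromosome 8 (22411361 to 22429665, plus strand).

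Mrpl17 encodes a large-subunit protein with a bacterial counterpart that sits where the new chain leaves the ribosome. Its level was 23.2, 29.0 and 25.04 FPKM after DRB, against 95.0, 90.3 and 56.7 FPKM in Con. The 3 DRB libraries agreed closely, and Con replicate 3 was the lowest of the Con libraries but still above every DRB library. The log2 fold change was −1.58 ± 0.31 with a limma adjusted p of 0.0239. The gene (chromosome 7, 105803206 to 105811099, minus strand) is overlapped over 7894 bases on the other strand by the pseudogene Gm15645, which stood at 8.13, 9.30 and 6.92 FPKM after DRB, against 15.0, 16.2 and 22.1 FPKM in Con. Smart-Seq2 does not keep the strand, so reads of the overlapping pair cannot be told apart.

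Mrpl41, a large-subunit protein of the mitochondrial lineage, was the fourth. It stood at 28.0, 34.3 and 33.7 FPKM after DRB, against 75.4, 116.5 and 78.1 FPKM in Con. Con replicate 2 was the highest library, and the groups did not overlap. The means were 32.0 ± 3.44 FPKM in DRB and 90.0 ± 23.01 FPKM in Con (SD, n = 3 each), with a log2 fold change of −1.44 ± 0.29 and a limma adjusted p of 0.0292. It lies on chromosome 2 (24974117 to 24975098, minus strand).

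With 3 libraries a group, these calls depended on each library. Mrps27 was called without DRB replicate 2 and lost its call without any other library (limma adjusted p 0.0431 to 0.0963 over the 6 fits). Mrps31 was called without DRB replicate 3 or Con replicate 3 and lost its call without any other (0.0114 to 0.0688). Mrpl17 was called without Con replicate 3 only (0.0405 to 0.104), and Mrpl41 lost its call without any 1 library (0.0510 to 0.141). Other settings also ended calls. Mrps27 was not called with a pseudocount of 0.1 (limma adjusted p 0.0919) or a minimum of 5 FPKM (0.0515), Mrpl17 not without the mean-variance trend (0.0523), and Mrpl41 not without the trend (0.0640) or without the mitochondrial genome (0.0503). With no filter on low values none of the 4 was called (0.160 to 0.227). In the 6 fits that left out 1 library, the fold change of each was −1.24 or lower.

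**Figure D2:**
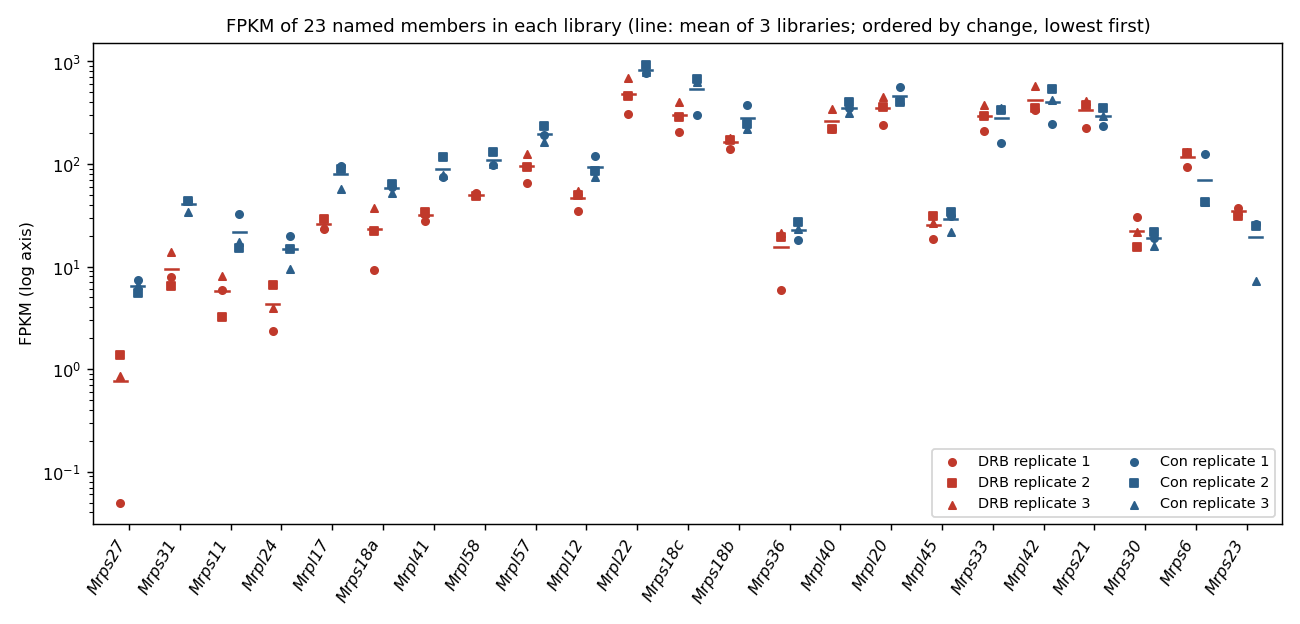
FPKM on a log axis of 23 named members in each library, with DRB libraries (red) left of Con libraries (blue), markers by replicate and a line at the mean of 3 libraries. From Mrps27 to Mrpl22, at the left, the DRB points lie below the Con points, while from Mrps36 to Mrps6 the 2 groups overlap and at Mrps23 the DRB points lie above.

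Large-subunit genes were nearly all on the low side. Of 49 Mrpl genes, 48 had a negative change and the median was −0.65. At the adjusted threshold 2 fell, against 0.95% of tested genes. In 19, every DRB library lay below every Con library, against 13.9% of tested genes. The exception in sign was Mrpl42, at 0.09. The 29 with a bacterial counterpart were all negative with a median of −0.65, and the 20 without one had 19 negative and a median of −0.64.

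Proteins around the polypeptide exit were taken as 1 group, drawn up after the values were seen (Mrpl17, Mrpl22, Mrpl23, Mrpl24, Mrpl39, Mrpl44, Mrpl45 and Mrpl47). All 8 had a negative change, with a median of −0.66, and 4 had DRB below Con in every library, against 13.9% of tested genes. Mrpl24, at the mouth of the exit, stood at 2.34, 6.64 and 3.93 FPKM after DRB, against 20.1, 14.9 and 9.40 FPKM in Con. The groups did not overlap, but the highest DRB and the lowest Con library were close, and the log2 fold change of −1.60 ± 0.45 had a limma adjusted p of 0.0916. Mrpl22, which lines the exit tunnel, had the highest mean level of the family in both groups. It stood at 305, 462 and 689 FPKM after DRB, against 772, 932 and 781 FPKM in Con. The DRB libraries spread widely and the third came near the Con range, and the log2 fold change was −0.84 ± 0.31 with a limma adjusted p of 0.181. Mrpl45, which tethers the ribosome to the inner membrane, was at 18.5, 31.3 and 26.4 FPKM after DRB, against 30.8, 34.3 and 21.9 FPKM in Con. Its groups overlapped (log2 fold change −0.19 ± 0.33, limma adjusted p 0.825), and without DRB replicate 1 the sign turned to 0.0094.

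At the stalk, where the translation factors bind, Mrpl10, Mrpl11 and Mrpl12 were all negative with a median of −0.86. Mrpl12, the stalk protein itself, stood at 35.1, 50.1 and 55.1 FPKM after DRB, against 119, 85.2 and 74.98 FPKM in Con. No DRB library reached the lowest Con library, and the log2 fold change was −0.97 ± 0.30 with a limma adjusted p of 0.122. In the central protuberance (Mrpl18, Mrpl27, Mrpl38, Mrpl40, Mrpl46 and Mrpl48) all 6 were negative with a median of −0.45. Mrpl40, its most abundant member, stood at 221, 218 and 345 FPKM after DRB, against 348, 399 and 314 FPKM in Con. DRB replicate 3 lay inside the Con range, and the log2 fold change was −0.46 ± 0.27 with a limma adjusted p of 0.405.

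Mrpl58 is a large-subunit protein that still works as a peptidyl-tRNA hydrolase and frees stalled chains. It stood at 52.5, 48.2 and 49.5 FPKM after DRB, against 98.0, 129.8 and 100.2 FPKM in Con. The DRB libraries were nearly equal and all well below Con, and the log2 fold change of −1.10 ± 0.26 had a limma adjusted p of 0.0576. With a minimum of 5 FPKM in place of 1 it was called (limma adjusted p 0.0438). Mrpl57, a small added protein, stood at 65.7, 94.6 and 126 FPKM after DRB, against 193, 233 and 165 FPKM in Con. The groups did not overlap (log2 fold change −1.07 ± 0.30, limma adjusted p 0.0931). Mrpl20, a protein that binds the large ribosomal RNA, stood at 238, 362 and 449 FPKM after DRB, against 558, 402 and 425 FPKM in Con. The groups overlapped, with DRB replicate 3 above 2 Con libraries (log2 fold change −0.43 ± 0.29, limma adjusted p 0.480).

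Small-subunit proteins had a median close to that of the large subunit, and a wider range. Of 29 Mrps genes, 23 had a negative change and the median was −0.69. At the adjusted threshold 2 fell, against 0.95% of tested genes. In 11, every DRB library lay below every Con library, against 13.9% of tested genes. The changes ran from −2.16 to 0.98, which are also the ends of the whole family. By bacterial ancestry, 14 of 16 with a counterpart and 9 of 13 without one were negative, with medians of −0.77 and −0.65. Mrps18a and Mrps18b, both negative, were counted as without one, although they are related to the same bacterial protein as Mrps18c, which was counted with one. The difference between the subunits was not tested. Some names mislead in this count, since the proteins of Mrps30 and Mrps18a are part of the large subunit in the known structures, and that of Mrps36 is now known as a subunit of the alpha-ketoglutarate dehydrogenase complex. By structure, 49 of 51 large-subunit and 21 of 26 small-subunit genes were negative, with medians of −0.65 and −0.69.

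From the head of the small subunit, 5 proteins with a bacterial counterpart were taken as a group made after the values were seen (Mrps7, Mrps9, Mrps10, Mrps14 and Mrps24). Proteins without a counterpart were left out, so the group may not be the whole head. All 5 were negative with a median of −0.74, and 4 had DRB below Con throughout, against 13.9% of tested genes. On the platform (Mrps6, Mrps11, Mrps15, Mrps18c and Mrps21) 3 of 5 were negative, with a median of −0.13. That group held both extremes among proteins with a bacterial counterpart. Mrps11 stood at 5.88, 3.20 and 8.18 FPKM after DRB, against 32.4, 15.1 and 17.3 FPKM in Con. The groups were well separated, and Con replicate 1 was the highest library. The log2 fold change of −1.74 ± 0.44 had a limma adjusted p of 0.0631, and with a minimum of 5 FPKM it was called (0.0441). Its gene overlaps that of Mrpl46 by 413 bases on opposite strands of chromosome 7, and reads of the shared stretch cannot be told apart. Mrpl46, in the central protuberance, stood at 22.7, 23.9 and 33.2 FPKM after DRB, against 87.8, 60.1 and 42.1 FPKM in Con, and its log2 fold change was −1.18 ± 0.34 (limma adjusted p 0.0975). Both members of the pair had Con replicate 1 as their highest library.

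The other extreme of the platform was Mrps6. It stood at 93.9, 129 and 131 FPKM after DRB, against 125, 42.75 and 42.81 FPKM in Con. Con replicate 1 lay inside the DRB range and the other 2 Con libraries were close together and far below it. The log2 fold change was 0.92 ± 0.40 with a limma adjusted p of 0.261, and it lay between 0.66 and 1.42 over the 6 fits that left out 1 library. Slc5a3, a gene of inositol uptake that lies within Mrps6 on the same strand, stood at 18.1, 12.9 and 9.58 FPKM after DRB, against 6.27, 3.81 and 7.61 FPKM in Con. Their reads may have been divided either way by the authors' counting, so the value of Mrps6 is uncertain.

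Mrps23, a small-subunit protein of the mitochondrial lineage, stood at 37.6, 31.0 and 34.9 FPKM after DRB, against 25.9, 24.9 and 7.20 FPKM in Con. All DRB libraries were above all Con libraries, and Con replicate 3 was the low one. The log2 fold change was 0.98 ± 0.45 with a limma adjusted p of 0.278. Without Con replicate 3 the change was 0.42.

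Paralogs related to a single bacterial small-subunit protein form a trio in mammals. Mrps18a, the one in the large subunit, stood at 9.26, 22.1 and 37.6 FPKM after DRB, against 59.7, 64.0 and 52.0 FPKM in Con. The DRB libraries differed from each other by more than the Con libraries did, and none reached Con. Its log2 fold change was −1.50 ± 0.44 with a limma adjusted p of 0.0995, and it was called without DRB replicate 3 (0.0408). Mrps18b stood at 140, 170 and 179 FPKM after DRB, against 372, 245 and 221 FPKM in Con. The groups did not overlap, Con replicate 1 was the highest, and the log2 fold change was −0.75 ± 0.28 with a limma adjusted p of 0.189. Mrps18c, second in the family by the mean of all 6 libraries, stood at 207, 289 and 406 FPKM after DRB, against 303, 680 and 634 FPKM in Con. Here Con replicate 1 was the low Con library and fell inside the DRB range, and the log2 fold change was −0.81 ± 0.36 with a limma adjusted p of 0.268. The order of the Con libraries differed between Mrps18b and Mrps18c.

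Several of the most abundant members showed overlapping groups. Mrpl42 stood at 336, 351 and 572 FPKM after DRB, against 247, 534 and 419 FPKM in Con, and Con replicate 1 was the lowest of the 6. Mrps33 stood at 210, 293 and 377 FPKM after DRB, against 162, 335 and 352 FPKM in Con, again with Con replicate 1 the lowest. Mrps21 stood at 223, 376 and 409 FPKM after DRB, against 234, 349 and 296 FPKM in Con. All 3 had small positive changes, 0.09 ± 0.34 for Mrpl42, 0.09 ± 0.35 for Mrps33 and 0.17 ± 0.30 for Mrps21, with limma adjusted p of 0.917, 0.921 and 0.831. For Mrpl42 and Mrps33 the sign turned without DRB replicate 3 or without Con replicate 1. Mrps30 had DRB levels of 30.2, 15.4 and 21.6 FPKM, against Con levels of 19.2, 21.7 and 15.7 FPKM, and its change of 0.20 ± 0.35 (limma adjusted p 0.827) turned negative without DRB replicate 1. Mrps36 stood at 5.87, 19.5 and 21.3 FPKM after DRB, against 18.3, 27.3 and 23.02 FPKM in Con, with DRB replicate 1 low and the other libraries overlapping (log2 fold change −0.69 ± 0.46, limma adjusted p 0.476).

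The remaining members filled the range between these. Over all 78 the mean level of the 6 libraries had a median of 51.5 FPKM and ran from 3.63 FPKM (Mrps27) to 657 FPKM (Mrpl22), with 17 members above 100 FPKM, 54 between 10 and 100 FPKM and 7 below 10 FPKM. Neighbours in this order mostly lay within each other's spread: Mrps18c, Mrpl42 and Mrpl20 followed Mrpl22 at 420, 410 and 406 FPKM. Across members, Spearman's rho between mean level and log2 fold change was 0.16 (n = 78, a description over genes measured in the same libraries). The order of the members by level was kept between libraries, with rho of 0.890 to 0.961 within DRB, 0.905 to 0.965 within Con and 0.833 to 0.922 between the groups (n = 78 members).

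Library by library, the summed level of the 78 genes was 4394, 5472 and 7153 FPKM in DRB replicates 1 to 3, against 7772, 9077 and 7606 FPKM in Con replicates 1 to 3. DRB replicate 3 came close to the lowest Con library and the other 2 DRB libraries did not. The means were 5673 ± 1390 FPKM in DRB and 8151 ± 806 FPKM in Con (SD, n = 3 each), a ratio of 0.696, and the family took 0.484% ± 0.075 of all FPKM in DRB and 0.713% ± 0.053 in Con. Without the genes of the mitochondrial genome the ratio was 0.754, and with median-of-ratios scaling 0.766. With either of these scalings the sum of DRB replicate 3 passed that of Con replicate 1 (7012 against 6923 FPKM, and 7932 against 7118 FPKM). With median-of-ratios scaling it also passed that of Con replicate 3 (7382 FPKM). Within each group 1 library was lowest most often. DRB replicate 1 was the lowest of its group in 50 members, replicate 2 in 24 and replicate 3 in 4, and among Con libraries replicate 3 was the lowest in 42, replicate 1 in 23 and replicate 2 in 13. In DRB replicates 1, 2 and 3, 55, 57 and 35 members lay below all Con libraries, and 5, 4 and 7 lay above all of them.

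**Figure D3:**
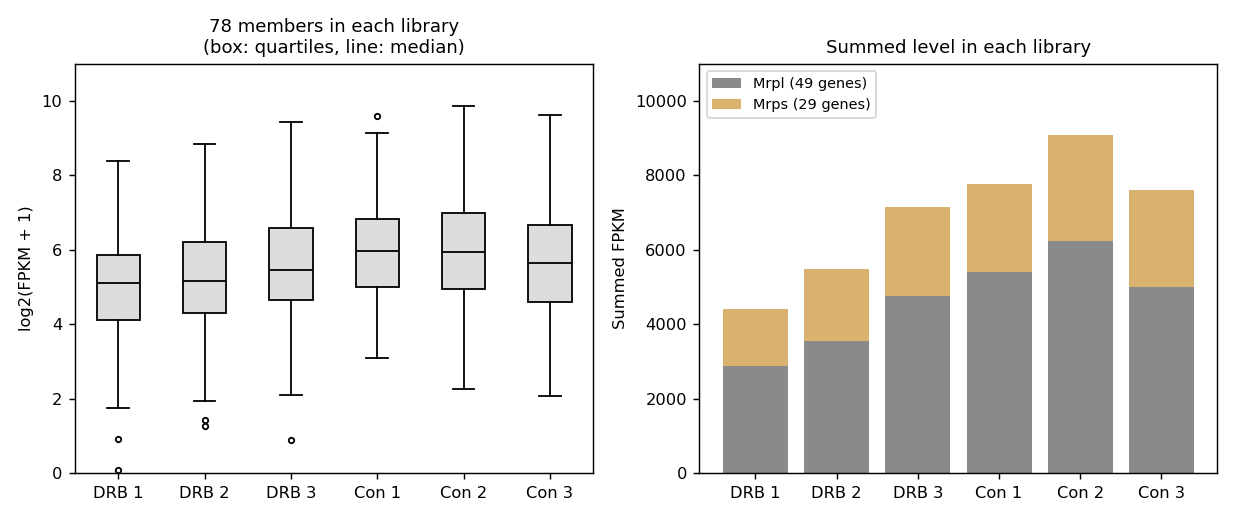
Left, log2(FPKM + 1) of the 78 members in each library (box at the quartiles, line at the median, circles for outlying members). Right, their summed FPKM in each library, split into Mrpl and Mrps genes. The sums run from 4394 to 7153 FPKM in DRB libraries and from 7606 to 9077 FPKM in Con libraries, and both parts of the bars are lowest in DRB replicate 1.

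Relatives in function were set beside the family. For the 85 cytosolic ribosomal protein genes tested, the median change was −0.37 with 79 negative, 1 called lower and 30.6% with DRB below Con in every library. The called one was Rpl7l1, a paralog linked to ribosome assembly, at 35.0, 37.9 and 48.6 FPKM after DRB, against 137, 124 and 71.2 FPKM in Con (log2 fold change −1.39 ± 0.32, limma adjusted p 0.0484). For 82 nuclear-encoded genes of the respiratory chain and ATP synthase the median was −0.44 with 70 negative, 2 called lower and 29.3% with DRB below Con. Those 2 were Ndufs7, of complex I, and Uqcr11, of complex III, at −1.69 ± 0.32 and −1.56 ± 0.29 on the log2 scale, with adjusted p by limma of 0.0226 and 0.0196. Over all tested genes, 56.0% had a negative change, 0.95% were called lower and 13.9% had DRB below Con in every library. The differences between the lists were not tested. The libraries are the same for all 3 lists.

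**Figure D4:**
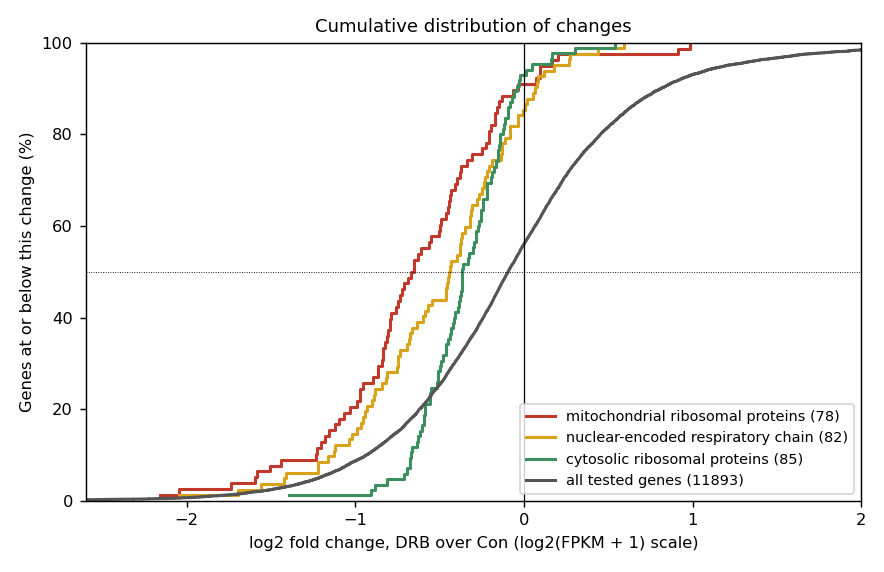
Cumulative share of genes (%) at or below each log2 fold change (DRB over Con, log2(FPKM + 1) scale) for 78 mitochondrial ribosomal protein genes, 82 nuclear-encoded respiratory chain genes, 85 cytosolic ribosomal protein genes and all 11893 tested genes. The curves cross the 50% line at −0.66, −0.44, −0.37 and −0.09.

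Other parts of mitochondrial gene expression were counted from lists drawn up with earlier results known, and 0 genes of any of them passed the adjusted threshold (limma). Of the members of the same ribosome that carry other names, 5 were tested (Dap3, Ptcd3, Chchd1, Aurkaip1 and Gadd45gip1), all negative with a median of −0.37 and 0 with an unadjusted p below 0.05. Chchd1, a small-subunit protein, stood at 51.5, 107 and 117 FPKM after DRB, against 92.4, 140 and 118 FPKM in Con. Aurkaip1, another, stood at 47.0, 49.5 and 42.7 FPKM after DRB, against 63.7, 76.6 and 39.2 FPKM in Con. Groups of both overlapped, with changes of −0.41 ± 0.35 and −0.31 ± 0.31.

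Translation factors of mitochondria, 14 tested, had a median of −0.06 with 8 negative and 0 with an unadjusted limma p below 0.05. Slirp, which stabilises mitochondrial mRNAs, had a change of −0.24 ± 0.33, and Tufm, the elongation factor that delivers tRNA, of −0.55 ± 0.32. For assembly factors and enzymes that modify the ribosomal RNA, 26 tested, the median was −0.28 with 21 negative and 7 with DRB below Con in every library, and the unadjusted p was below 0.05 for 4 with a lower and 1 with a higher level. Over all tested genes these shares are 13.9% for DRB below Con, and 10.5% and 7.53% for the unadjusted p. Its 2 most abundant genes, Grsf1 of RNA granules and Noa1, an assembly GTPase, were at 0.08 ± 0.29 and −0.15 ± 0.27. For enzymes that charge mitochondrial tRNAs, 19 tested, the median was −0.22 with 14 negative. DRB lay below Con in every library for 5 (26.3%), against 13.9% of tested genes, and above for 1. The unadjusted p was below 0.05 for 2 with a lower and 1 with a higher level, about the share of all tested genes. Qars, known as a cytosolic enzyme, was at −0.41 ± 0.32, and Kars, which serves both the cytosol and mitochondria, at −0.71 ± 0.29. For transcription and upkeep of mitochondrial DNA, 12 tested, the median was −0.07 with 6 negative, and the unadjusted p was again below 0.05 for 2 with a lower and 1 with a higher level. Ssbp1, which coats single-stranded mitochondrial DNA, was at −0.19 ± 0.30, and Tefm, an elongation factor, at −0.21 ± 0.36.

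The RNAs this ribosome is built on and translates ran the other way in sign. All 15 mRNAs and ribosomal RNAs of the mitochondrial genome had a positive change, with a median of 0.45. Of these, 6 had every DRB library above every Con library, against 9.85% of tested genes. An unadjusted limma p below 0.05 was found for mt-Co2, mt-Cytb and mt-Rnr1, of which the groups of mt-Rnr1 overlapped. Over all tested genes 7.53% had such a p with a higher level. The most abundant, mt-Cytb, stood at 57681, 68163 and 76526 FPKM after DRB, against 28857, 48423 and 47344 FPKM in Con. The 2 groups did not overlap, and Con replicate 1 was the lowest (log2 fold change 0.73 ± 0.33, limma adjusted p 0.266). Second was mt-Atp6, at 50775, 62849 and 69188 FPKM after DRB, against 30300, 52415 and 44765 FPKM in Con, where DRB replicate 1 lay inside the Con range (0.54 ± 0.32, limma adjusted p 0.413). For the small ribosomal RNA, mt-Rnr1, the levels were 8997, 8335 and 5370 FPKM after DRB, against 3018, 2054 and 5920 FPKM in Con, with Con replicate 3 above DRB replicate 3 (1.15 ± 0.39, limma adjusted p 0.144). An oligo-dT primer captures ribosomal RNA only in part, so this is the level of the captured part.

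Regulators of nuclear genes for mitochondrial proteins, 9 tested of 12, had a median of −0.15, and 0 had an unadjusted p below 0.05. Gabpa stood at 157, 133 and 117 FPKM after DRB, against 210, 180 and 129 FPKM in Con, and Pprc1, a coactivator, at 127, 67.8 and 73.9 FPKM after DRB, against 45.6, 68.0 and 59.9 FPKM in Con. Groups of both overlapped (−0.33 ± 0.28 and 0.59 ± 0.32, limma adjusted p 0.585 and 0.369). Nrf1 was at −0.08 ± 0.38 and Yy1 at 0.73 ± 0.42, with limma adjusted p of 0.941 and 0.393.

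Members had a lower median transcript length than tested genes and a middling base composition. Their longest annotated transcripts had a median of 1327.5 bases (quartiles at 919 and 2590) and a GC content of 50.01%, against 2393.5 bases and 48.7% over tested genes. Across the 78 members, Spearman's rho with the log2 fold change was −0.04 for length and −0.10 for GC content, and over 11884 tested genes 0.09 and −0.18, given as descriptions over genes of the same libraries. In transcripts of 40% to 45% GC the median change was −0.79 for 13 members and 0.03 for tested genes, and at 45% to 50% it was −0.69 for 25 members and −0.05 for tested genes. At 50% to 55% it was −0.46 for 23 members and −0.19 for tested genes, and at 55% to 60% −0.81 for 13 members and −0.26 for tested genes. The members’ medians lay below those of tested genes in each of these 4 bins. With the GC trend of each library removed, an alternative chosen after seeing the data, 3 members were called and Mrpl41 was not, and the members' median was −0.52.

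**Figure D5:**
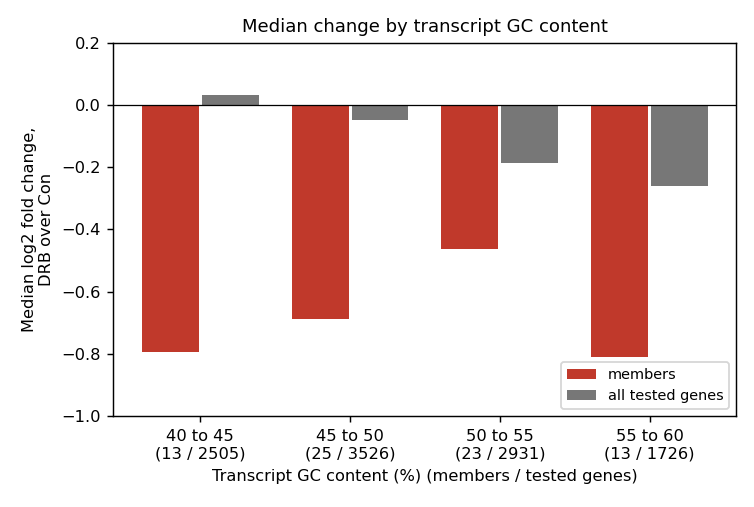
Median log2 fold change (DRB over Con, log2(FPKM + 1) scale) of members (red) and of all tested genes (grey) in 4 bins of transcript GC content, with the number of genes of each under the axis. Members' bars run from −0.81 to −0.46, and those of tested genes from −0.26 to 0.03.

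Position in the genome gave no single cluster, as the members lie on 17 autosomes with at most 11 on 1 of them. The genes of 40 members, introns included, are overlapped by another annotated gene, 35 of them on the opposite strand. Smart-Seq2 does not keep the strand, and no source used here says how the authors' counting treated reads of such overlaps.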

How the data were processed

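Smart-Seq2 libraries of mouse 4-cell embryos, 3 per group, were sequenced as paired ends, per the labels' protocols. The submitters' processing notes name cutadapt 1.16, STAR and mm10; no source used here gives the tool and annotation behind the expression values. What the authors deposited is FPKM for each gene, per the file headers, so a rise of abundant transcripts lowers all others. Since these are not counts, no count test was run. Genes that reached 1 FPKM in 3 or more libraries entered a limma 3.58.1 fit (R 4.3.3) of log2(FPKM + 1), with a mean-variance trend, group as the single term, two-sided p-values, and adjustment by Benjamini-Hochberg over all 11893 genes tested, called below 0.05. Errors of fold changes are moderated standard errors.

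The members, lists, tests and alternatives were chosen with earlier results of these data known. Named members were those called, the 6 highest and 6 lowest changes, the 6 most abundant, the Mrps18 paralogs, and Mrps30, Mrps36, Mrpl58, Mrpl12, Mrpl45 and Mrpl57; of other lists, the called genes or else the 2 most abundant. Mrpl46, mt-Rnr1, Nrf1, Yy1 and the groups by structural position were added after their values were seen. No source says that replicates came from separate cultures, and p-values then cover just the spread between these libraries, which may be technical. GENCODE M21 (GRCm38) held 55154 of the gene IDs and lacked 181. For depth, low values of genes with 1 transcript were read as steps of 1 fragment. Of these values, 72.5% to 81.1% lay within 0.15 of a whole number of fragments. A depth 2 times as large fitted as well, so an upper limit was set on the depths tried. The 3 libraries per group limit the precision. Alternatives were another pseudocount, filter, threshold and scaling, no trend, the replicate block, leaving out each library, and removal of a GC trend (added after seeing the data). The fit was tested on simulated data. Figures used Python 3.11.15 and matplotlib 3.10.9.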

Additional observations from a re-analysis of the deposited data

How the results depend on the processing

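The medians of the 78 members and of both subunits, and the ratio of summed levels, stayed below 0 and 1 in every alternative run. The members' median was −0.74 to −0.53 when 1 library was left out and −0.70 with a pseudocount of 0.1. Relative to the median of all tested genes, which was 0.02 without the mitochondrial genome and 0.00 with median-of-ratios scaling in place of −0.09, it was −0.57 as deposited and −0.55 with each scaling; without DRB replicate 1 it was −0.36, and without 1 of the other libraries −0.70 to −0.46. The number of genes called, 295 in all (182 higher, 113 lower), was 164 with a pseudocount of 0.1, 6 with no filter on low values, 171 with the replicate block, 50 at an adjusted p below 0.01, and 47 to 220 without 1 library. It was 265 (191 higher, 74 lower) without the mitochondrial genome and 317 (231 higher, 86 lower) with median-of-ratios scaling. The number of members called lower, 4, was 0 with no filter, 1 with the replicate block, 2 without the trend, 0 at 0.01, and 0 to 2 without 1 library. With no filter and at 0.01 this is limma's count, and 28 and 30 members had an unadjusted p below 0.05 with a lower level. That number was 24 without the mitochondrial genome, 20 with median-of-ratios scaling and 20 with the GC trend removed. The share of tested genes with such a p was not counted in these fits or with no filter. Same-numbered libraries did not deviate together (correlations of −0.0468, 0.0530 and −0.0512), so the numbers were not taken as pairs; with the replicate block Mrps31 was called (limma adjusted p 0.0445) and Mrps27, Mrpl17 and Mrpl41 were not (0.0648, 0.0514 and 0.0578). Of the named members, the sign turned for Mrps33 without DRB replicate 3 (−0.11) or Con replicate 1 (−0.27), for Mrpl42 without the same libraries (−0.15 and −0.22), for Mrps30 without DRB replicate 1 (−0.03) and for Mrpl45 without DRB replicate 1 (0.0094); the cause was not tested. Without 1 library their changes ran from −0.27 to 0.31, −0.22 to 0.34, −0.029 to 0.43 and −0.38 to 0.0094. Of the other alternatives of named members, 299 kept direction and side of the threshold, 37 lost a call and 3 gained one. Most of the 299 belong to members that were not called at the start and had no call to lose. All 37 losses were of the 4 called members. In 14 alternative fits Mrps27 was called in 5, Mrps31 in 9, Mrpl17 in 6 and Mrpl41 in 3.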

Other observations

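Pseudogenes of the family were left out by the rule. Mrpl23-ps1 stood at 15.1, 21.5 and 23.5 FPKM after DRB, against 30.2, 38.5 and 29.6 FPKM in Con, and Mrpl48-ps at 2.22, 1.91 and 2.31 FPKM after DRB, against 6.55, 6.95 and 3.37 FPKM in Con. In both the groups did not overlap. Among their parent genes, Mrpl48 was at 15.2, 18.4 and 22.1 FPKM after DRB, against 39.4, 35.2 and 24.5 FPKM in Con, and Mrpl23 at 36.1, 47.6 and 66.6 FPKM after DRB, against 33.0, 85.9 and 43.3 FPKM in Con. Reads of parent and pseudogene cannot be assigned with certainty, so these 4 values are uncertain. The 3 pseudogenes of Mrps36 stayed at 2.72 FPKM or lower in every library.

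Some genes of neighbouring lists lay far from their list's median, and were picked after their values were seen. Mgme1 and Polg2, of mitochondrial DNA upkeep, had log2 fold changes of −1.39 and −1.25, and Tfb2m, of mitochondrial transcription, had 0.63. Among assembly factors Mterf4 and Mrm2 stood at −1.30 and −1.31, and none of these 5 passed the adjusted threshold by limma.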
